A study of Mus musculus with 2 samples.

Results

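Msgn1 (mesogenin 1) peaks were examined around 5 genes of the Wnt pathway: the ligand genes Wnt3a and Wnt5a, the agonist gene Rspo3, the gene of the nuclear factor Lef1 and the gene of the feedback inhibitor Axin2. A peak is a stretch where the authors' caller found more reads in the chromatin immunoprecipitation (ChIP) library than in input DNA. A peak was counted at a gene when its midpoint lay within the gene or within 150 kb of either end. This gave 12 of the 4087 peaks of the list. The genes were selected on the positions and scores of these same peaks, so their counts and scores are a description and carry no test.

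The study sequenced 1 ChIP library, made with the anti-Flag M2 antibody, and 1 library of input DNA, made with no antibody. Both came from A2lox FMsgn1 embryonic stem cells, labelled as strain C57BL/6, in which doxycycline switches on a FLAG-tagged Msgn1. Cells kept on mitomycin-treated mouse embryonic fibroblasts were differentiated as embryoid bodies, cell aggregates that begin to form the germ layers. They were induced on day 2 with doxycycline at 1 ug/ml and taken after another 36 h. Both libraries thus carry the induced transgene, which is expressed from a promoter that doxycycline controls. No uninduced library was analysed here, and with 1 library per group no value has a replicate error. The list shows no expression values, so neither the identity of the cells nor the level of any of the 5 genes could be checked.

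Wnt ligands bind Frizzled receptors. In the canonical branch this stabilises beta-catenin, which enters the nucleus and acts on target genes together with factors of the Tcf/Lef family. In the tail end of the embryo this signal maintains the progenitors of the presomitic mesoderm, the tissue that is divided into somites. Msgn1, a basic helix-loop-helix factor that binds E-boxes, is itself a known target of Wnt signalling there.

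The peaks at the 5 genes were very unequal in strength. The highest-scoring peak of the whole list lay inside Lef1, and the peak ranked 4th lay on the lower-coordinate side of Wnt5a. No peak was listed at Wnt3a, which is common: 63.2% of windows of 358.6 kb, described below, held none. The score is the authors' own value for each peak. Its scale is not stated, and it is used here only to rank peaks within the list. Of the 12 peaks, 5 scored 100 or more, against 28.6% of all listed peaks, and 5 scored under 60, against 30.0%. After the 2 highest, the next of the 12 scored 137.38 and ranked 645th. The median score was 78.34 at these genes and 72.83 over the list. Of the 12 peaks, 10 lay outside the genes, and the other 2 lay in Lef1. The genes were the smaller part of every stretch examined, from 23 of 323 kb at Wnt5a to 114 of 414 kb at Lef1. No preference for either place is read from this count.

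No peak was placed at the outer start of any of the 5 genes, at the resolution of 1 kb with which the gene positions are given. Further starts inside a gene, which RefSeq lists for Lef1, were not compared with the peaks. Peak sequences are not shown, since no mm9 sequence was used here. The bases just before the annotated start are shown for Lef1, Wnt3a and Axin2, the genes matched in the RefSeq promoter sequences (build GRCm38.p6), to give the sequence at the starts of these genes. Each is 250 bases long, 5′ to 3′ on the strand of the gene, with capitals marking each E-box, CANNTG, a motif that reads the same on both strands. In GRCm38.p6 they lie at chr3:131110047-131110296 (plus strand), chr11:59290752-59291001 (minus strand) and chr11:108920099-108920348 (plus strand). These positions are of another build than the peaks. They were not converted, so no peak is set against them.
Lef1: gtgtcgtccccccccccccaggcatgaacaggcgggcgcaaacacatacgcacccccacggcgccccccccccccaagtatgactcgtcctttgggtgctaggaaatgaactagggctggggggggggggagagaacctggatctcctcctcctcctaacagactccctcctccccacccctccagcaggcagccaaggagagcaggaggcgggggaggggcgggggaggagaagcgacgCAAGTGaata
Wnt3a: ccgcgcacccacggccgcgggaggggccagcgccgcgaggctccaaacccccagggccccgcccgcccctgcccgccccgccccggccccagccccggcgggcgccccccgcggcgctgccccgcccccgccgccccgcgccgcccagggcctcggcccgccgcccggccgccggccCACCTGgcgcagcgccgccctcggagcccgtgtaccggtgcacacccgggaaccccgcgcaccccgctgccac
Axin2: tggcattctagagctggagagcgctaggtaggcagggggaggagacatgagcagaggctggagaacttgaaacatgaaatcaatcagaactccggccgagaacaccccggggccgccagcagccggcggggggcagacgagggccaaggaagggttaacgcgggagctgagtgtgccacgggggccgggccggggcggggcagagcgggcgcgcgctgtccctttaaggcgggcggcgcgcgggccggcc
The Lef1 stretch held 1 E-box, CAAGTG, whose first base is 10 bases before the start. The Wnt3a stretch held 1 as well, CACCTG, beginning 73 bases before the start, and the Axin2 stretch held none. RefSeq lists 6 starts for these 3 genes, 4 of them for Lef1, and 5 of the 6 had an E-box before them, against 66.2% of all 32851 RefSeq promoters of this length. The Lef1 starts lie in 1 gene and some share sequence, so they are not independent. With only the first start of each gene, 2 of 3 had an E-box, close to the share of all promoters. Neither E-box overlaps another. The letters CAAATG or their reverse complement CATTTG, a narrower form of the motif, were before 1 of the 6 starts, the third of Lef1, and in 12.0% of all promoters. They were in none of the 3 stretches shown. G and C made up 66.4% of the Lef1 stretch, 69.2% of the Axin2 stretch and 87.6% of the Wnt3a stretch, where the median over all promoters was 52.4%.

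Wnt3a, a canonical ligand of the primitive streak and tail bud, had no listed peak within the gene (chr11, 59061 to 59104 kb) or within 150 kb of it. The nearest peak on the higher-coordinate side, chr11:59478259-59478776, was 374.5 kb away and scored 94.44. The nearest on the other side, chr11:58024504-58025558, was 1036.0 kb away and scored 447.48, the 35th of the list. The stretch between these peaks ran for 1452.7 kb, and 435 of the 4067 stretches between neighbouring peaks (10.7%) were as long or longer. This share gives each stretch the same weight. Long stretches cover more of the chromosomes, so the part of all positions lying in such stretches is above 10.7% and was not computed. Chromosome 11 as a whole had 2.06 peaks per Mb, above the 1.62 of the list. A place without a listed peak is one where no peak passed the caller and any later filter, whose settings are not known. Depth and mappability there are unknown as well.

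Wnt5a, a ligand that acts largely without beta-catenin and is known for its part in axis elongation, had 4 peaks around the gene (chr14, 29318 to 29341 kb) and none in it. The strongest, chr14:29188857-29190226, scored 900.37. It ranked 4th in the list and first of the 172 peaks on chromosome 14. It lay 128.5 kb from the gene, on the lower-coordinate side, which is upstream, since Wnt5a is transcribed towards higher coordinates. A second, weak peak, chr14:29186985-29187748, stood 1108 bp from it with a score of 51.23, close to the lowest score of the list, 50. The 2 neighbours thus ranked 4th and 3844th of 4087.

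The other 2 peaks of the Wnt5a locus lay beyond the gene's far end. The nearest peak to the gene was chr14:29354695-29355272, 14.0 kb away, and it scored 61.2. The last, chr14:29465534-29466514, was 125.0 kb away and scored 95.48. So 3 of the 4 peaks lay over 100 kb from Wnt5a, the strongest among them. In the gene order of RefSeq the protein-coding neighbours of Wnt5a are Erc2 on the lower side and Cacna2d3 on the higher side. Whether the distant peaks lie in these neighbours was not analysed here, and the list does not tie a peak to a gene.

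Rspo3, a secreted protein that enhances Wnt signalling by sparing Frizzled receptors from turnover, had 2 peaks. Both lay on the higher-coordinate side of the gene (chr10, 29173 to 29256 kb). This is the upstream side, as mouse Rspo3 is transcribed towards lower coordinates. The nearer, chr10:29274087-29274716, was 18.4 kb from the gene and scored 56.3. The farther, chr10:29289327-29289970, was 33.6 kb from it and scored 57.01. The gap between them was 14.6 kb, and they ranked 3225th and 3149th of the list. Both were therefore weak and alike in score and width (630 and 644 bp). On the other side no peak was listed through the gene and beyond it for 1368.2 kb, a length reached by 11.7% of all stretches between neighbouring peaks. As at Wnt3a, this share counts stretches without weighing their length, so a larger part of all positions lies in such stretches.

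Lef1, which carries beta-catenin to DNA and is itself induced by Wnt signals, had 4 peaks, 2 of them inside the gene (chr3, 130813 to 130927 kb). The strongest peak of the list, chr3:130820546-130822307, scored 1106.98. It lay from 7.5 to 9.3 kb inside the lower-coordinate end, which is the end where Lef1 starts. A weaker peak inside the gene, chr3:130862633-130863321, was centred 50.0 kb from that end and scored 55.43. Whether either overlaps an exon was not analysed here. Upstream, chr3:130737394-130738290 was 75.2 kb from the gene with a score of 131.18. The farthest, chr3:130722389-130723202, was 90.2 kb away with a score of 126.04.

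The upstream pair at Lef1 ranked 701st and 754th, and the gap between the 2 peaks was 14.2 kb. With 3 of 4 peaks scoring 100 or more, Lef1 held most of such peaks at the 5 genes. The 4 peaks spanned 140.9 kb. The peak-free stretch below them was 548.3 kb long and that above them 1406.6 kb. Stretches at least as long made up 31.4% and 11.2% of all those between neighbouring peaks. Such stretches were not particular to Lef1. Below and above the peaks they measured 600.7 and 747.6 kb at Axin2, 1368.2 and 285.5 kb at Rspo3, and 342.3 and 342.1 kb at Wnt5a. The protein-coding neighbours of Lef1 in RefSeq are Rpl34 below and Hadh above.

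Axin2, a scaffold protein that promotes the breakdown of beta-catenin and a common readout of Wnt signalling, had 2 peaks, both outside the gene (chr11, 108781 to 108811 kb). The first, chr11:108758648-108759519, lay 21.9 kb upstream of the start and scored 137.38. It ranked 40th of the 241 peaks on chromosome 11. The second, chr11:108958737-108959394, scored 54.44 and lay 148.1 kb beyond the other end of the gene. It was only 1.9 kb inside the limit of 150 kb. The protein-coding neighbours of Axin2 in RefSeq are Cep112 on the lower side and Rgs9 on the higher side.

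**Figure D1:**
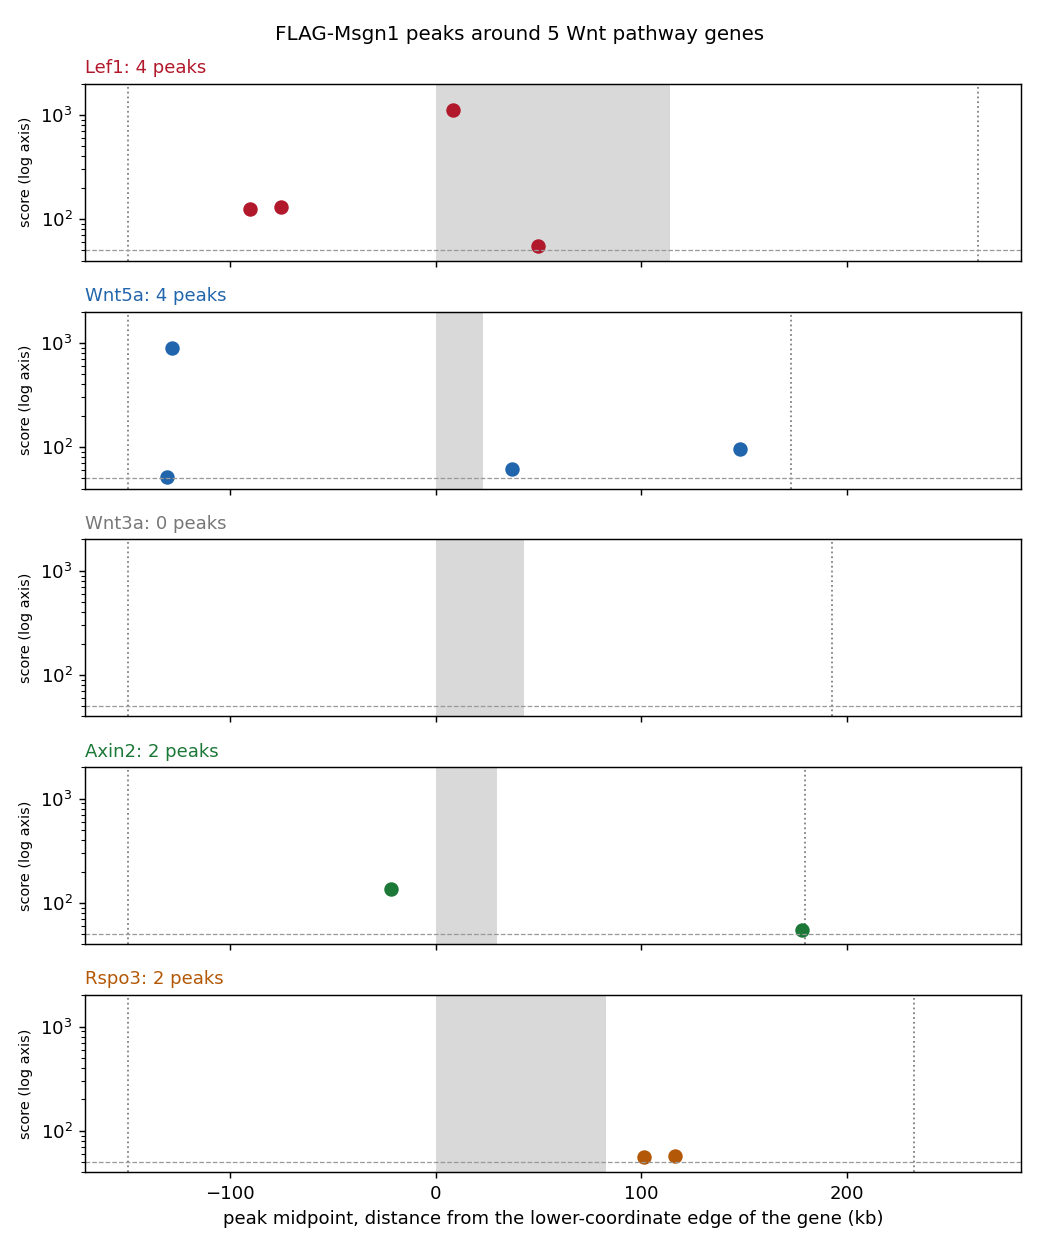
Peaks around each gene: the x axis gives the peak's midpoint as distance in kb from the gene's lower-coordinate edge, and the y axis (logarithmic) the authors' score. Each point is 1 peak, grey bands are the genes, dotted lines the limit of 150 kb and dashed lines the lowest listed score, 50. The points at 1106.98 (inside Lef1) and 900.37 (left of Wnt5a) stand above the other 10, which score at most 137.38.

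The 12 peaks came from 4 genes whose strongest peaks scored 1106.98 (Lef1), 900.37 (Wnt5a), 137.38 (Axin2) and 57.01 (Rspo3). Just inside the distance limit stood the Axin2 peak at 148.1 kb, followed by the Wnt5a peaks at 130.6 and 128.5 kb. The first peak beyond it was 319.9 kb from Rspo3, chr10:29575489-29576304, with a score of 135.61. A limit anywhere between 148.1 and 319.9 kb would thus give these 12 peaks. A narrower one would not: within 100 kb of the gene 8 peaks were left, and the strong Wnt5a peak was lost.

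Strong peaks at these genes were also wide. The strongest Lef1 peak measured 1762 bp and was the widest of the 10 highest-scoring peaks of the list, whose widths began at 940 bp. In the whole list 5 peaks were wider. The strong Wnt5a peak measured 1370 bp, and 21 listed peaks were wider. None of the other 10 peaks reached 1000 bp, a width that 5.77% of all peaks reached. The Wnt5a peak scoring 95.48 came nearest, with 981 bp. Over the 12 peaks the median width was 789 bp, and over the list it was 678 bp. Neither measure is independent of the other, as one call on the same reads gave both.

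**Figure D2:**
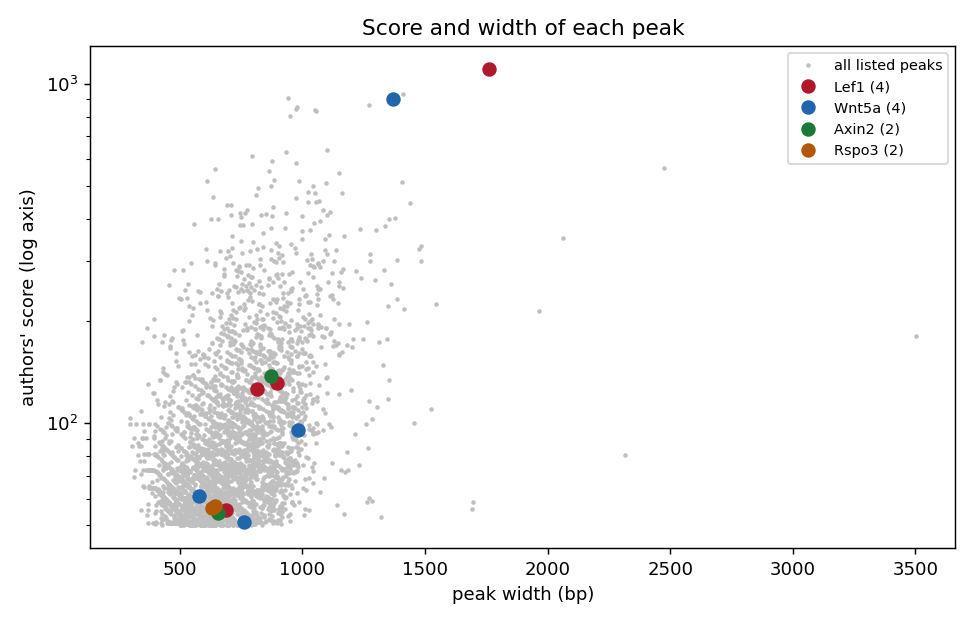
Width of each peak in bp (x axis) against the authors' score (y axis, logarithmic). Grey points are all 4087 listed peaks and coloured points the 12 peaks at Lef1, Wnt5a, Axin2 and Rspo3, of which those of 1762 and 1370 bp lie at the top and the rest lie within the main body of the list.

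Most of the peaks at these genes lay near another. Of the 12, 8 had another listed peak within 50 kb, against 30.0% of all peaks, and 6 had one within 20 kb, against 17.4%. Each of the 4 Lef1 peaks had the 3 others within 150 kb of its midpoint, which 11.4% of all peaks had. The 2 peaks at Axin2 were the most isolated, at 199.2 kb from each other. The genes were selected on these peaks, so nothing is read from the shares.

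To give the number of peaks at a gene a background, each chromosome was divided between its first and last peak into windows of 358.6 kb, the mean length of the 5 stretches examined. Of 7027 such windows, 63.2% held no peak, as Wnt3a, and 13.7% held 2 or more, as Axin2 and Rspo3. Windows with 4 or more peaks, as Lef1 and Wnt5a, are among the latter and made up 1.76% of all windows. A peak scoring 100 or more was present in 13.9% of windows and at 3 of the 5 genes, Lef1, Wnt5a and Axin2. The windows include stretches without genes, so they are not matched to genes. They also differ in length from the single stretches, which were 414 kb at Lef1 and 323 kb at Wnt5a. As the genes were selected on these peaks, no excess is read from the shares.

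**Figure D3:**
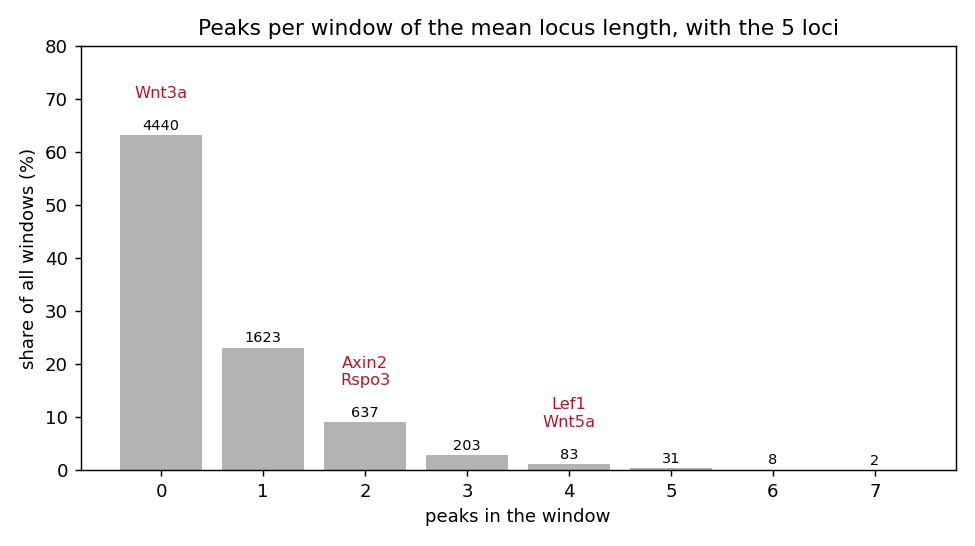
Share of all 7027 windows of 358.6 kb (y axis, %) by the number of listed peaks they hold (x axis), with the number of windows above each bar and the 5 genes written at their own number of peaks. Wnt3a shares the tallest bar, and Lef1 and Wnt5a stand at 4 peaks, where 83 windows are found.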

How the data were processed

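The data are 1 peak list of the FLAG ChIP library over input DNA, deposited with chromosome, start, end, name and score and without a header. The peak names in the file show that the authors used MACS. Not given in the sources used here: its version and settings, the aligner, the filters. CASAVA 1.4, FastQC and the build mm9 come from the submitters' processing notes. The score is the authors' deposited value, from 50 upwards, of unstated scale. No read count or library total was used, so depth is unknown and no interval on a score can be given.

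Starts were read as 0-based and are printed 1-based. Gene positions, in kb on mm9, are those of the rule that chose the genes. The genes and lists were chosen with earlier results of these data known. The genes named are these 5, with all their peaks. Other Wnt pathway genes were planned for an mm9 annotation and were not analysed here. RefSeq (GRCm38.p6) gave gene order and promoter sequences, and no position was converted. Ranks, distances and windows were computed with Python 3.11.15, numpy 2.4.6 and pandas 2.3.3, and the counting was tested on simulated peaks. No statistical test was made.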

Additional observations from a re-analysis of the deposited data

How the results depend on the processing

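The counts depend on the distance allowed and on the score limit. Within 50 kb of the genes 6 of the 12 peaks were left: 2 at Lef1, 1 at Wnt5a, 1 at Axin2 and 2 at Rspo3. Within 100 kb there were 8, with 1 at Wnt5a and 1 at Axin2. Within the genes themselves there were 2, both in Lef1, and 0 at Wnt5a, Axin2 and Rspo3. At a score of 100 or more there were 5, of which Wnt5a had 1, Axin2 1 and Rspo3 0. The cause of each is the construction of the setting, which admits fewer peaks. A distance of 250 kb, counting any overlap, and joining peaks less than 1 kb apart each left 12. Neither the distance nor the joining could change the count. The first peak beyond the limit is 319.9 kb from its gene, and the closest 2 of the 12 are 1108 bp apart. A joining limit above 1108 bp would merge these 2 Wnt5a peaks, and Wnt5a would then have fewer than 4. Wnt3a had 0 peaks in all 7 settings. The share of windows with 4 or more peaks was 1.64% with windows shifted along the chromosome and 1.88% on autosomes alone, against 1.76%. No paired analysis was possible because each group has 1 library and the result comes from no test. Replicates could not be left out for the same reason. Nothing here separates Msgn1 binding from other differences between these 2 libraries.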

Other observations

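RefSeq lists further starts for Lef1, and the 250 bases before them differ in their E-boxes from the first. The second, shortly downstream of the first, shares its CAAGTG. Before the third start lie CAGCTG and CAAATG, and before the fourth lies CACGTG. The bases before Wnt3a were among the richest in G and C: of 32851 promoters, 12, its own included, had a share as high. These are descriptions of sequence, and no listed peak was set against them, as no position was converted between builds.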
